A study of Gallus gallus with 20 samples.

Results

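The comparison described here set the epithelium of early scale-forming skin against that of early feather-forming skin in the white leghorn chicken embryo. The E7fe group was undifferentiated dorsal feather epithelium at embryonic day 7 (2 arrays), and the E9se group was metatarsal scale epithelium at embryonic day 9 (2 arrays). These 4 arrays were taken, by their labels, from the 20 of a series that also holds the mesenchyme of both skins (E7fm and E9sm) and the later epithelia and mesenchymes (E9fe, E9fm, E11se and E11sm). The labels describe pooled skins and name the arrays of a group biological replicates, without an embryo number for each array. Epidermis and dermis were parted with EDTA before RNA extraction. The study matched these ages as skins of similar developmental plasticity, because scale skin starts to develop later, and it calls both epithelia undifferentiated. The scale skin was 2 days older than the feather skin, so body region and age cannot be told apart in this comparison, and neither can fewer cells of a type and less RNA per cell.

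Feathers and scales both begin as epithelial placodes that form over a dermis and exchange signals with it. FGF, WNT and BMP proteins are the best known of these signals, and the dermis fixes which appendage is made while the epithelium is still able to respond. Limb skin differs from back skin in its HOX code and in ectodermal regulators of the limb. Melanoblasts, the neural crest cells that will colour the feather, enter the epidermis at about the same time.

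Levels are on the log2 scale, so 1 unit is a doubling, and each difference is E9se minus E7fe. The array medians lay between 5.62 and 5.69. Over all probe sets the E7fe arrays correlated at r = 0.986, the E9se arrays at 0.991, and arrays of the 2 groups at 0.975 to 0.983. An array labelled E9fe replicate 1 correlated more closely with the E9se arrays (0.981 to 0.985) than with the other E9fe arrays (0.972 to 0.974). The array labelled E9fm replicate 1 likewise lay nearer to E9sm (0.978 to 0.983) than to its own group (0.961 to 0.966). Neither belongs to the 2 groups compared, but both enter the estimate of the spread between replicates, so the counts of called list members are also given without them. Of 11 epithelial markers none passed with all arrays, and EPCAM stood at 13.2 and 13.0 in E7fe and at 13.1 and 12.9 in E9se, and CDH1, CLDN1, DSP and TP63 differed by 0.21 or less. The basal keratin KRT5 differed by +2.98 and passed without the doubted arrays, and the mean level of the list was 9.87 and 10.1 in E7fe and 10.2 and 10.5 in E9se.

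With limma and Benjamini-Hochberg adjustment over all probe sets, 163 of 13009 genes passed a threshold of 0.05, which is 1.25% of them. In E9se 72 genes (0.553%) were higher and 91 (0.700%) lower. Without the 2 doubted arrays 193 genes (1.48%) were higher and 217 (1.67%) lower, among them all 163. Counts of called list members further down are to be set beside these shares. The median difference over all genes was -0.002. Both E9se arrays lay above both E7fe arrays for 21.3% of all genes and below them for 19.5%, so groups of 2 arrays that do not overlap are common. By the study's own rule of more than 5-fold between group means, 33 genes were higher and 45 lower, of which 46 also passed the test. The study counted probes, not genes. By probe set 140 met the rule here, 62 higher and 78 lower. Leaving out any 1 of the 4 arrays left 55 to 106 probe sets called, against 314, and 23 of the 163 genes passed in all 4 of these fits while 101 passed in none.

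**Figure D1:**
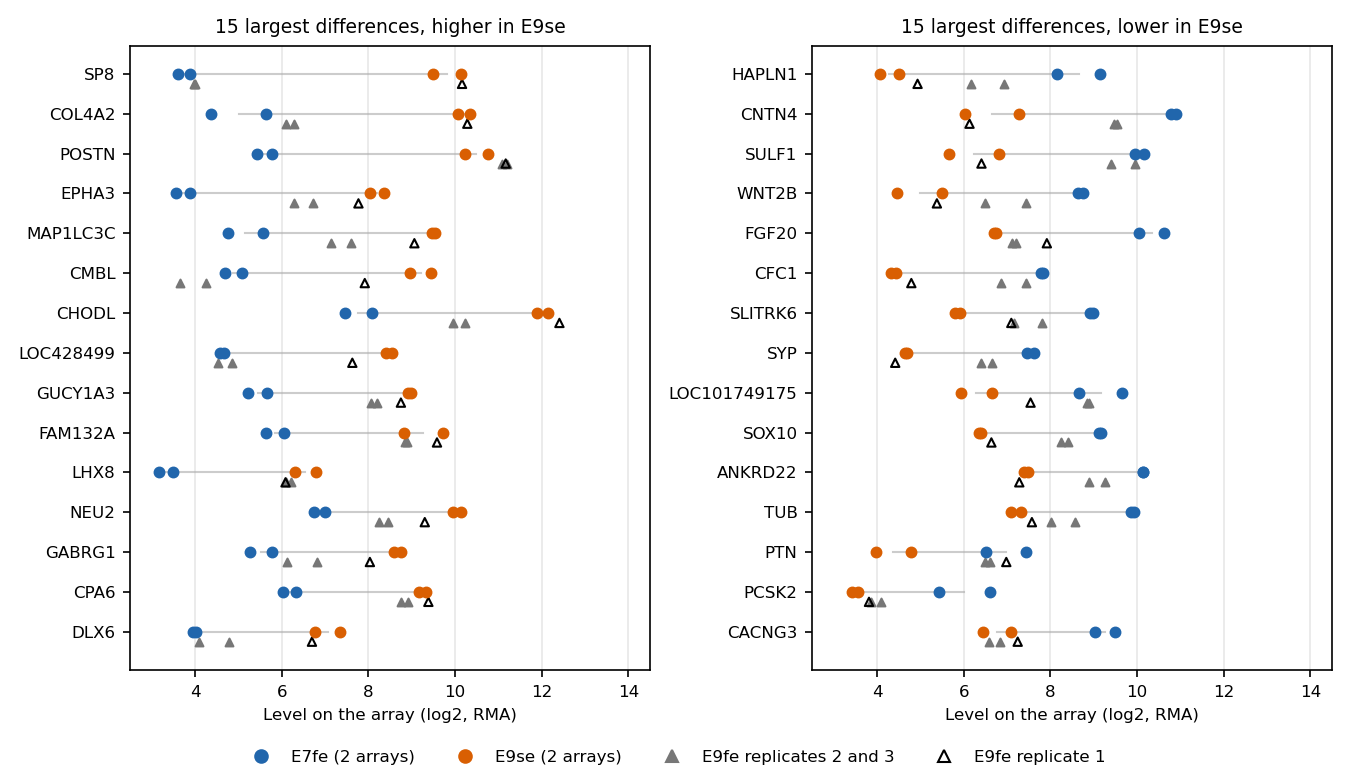
Log2 level on each array of the 30 genes that passed the test with the widest differences, 15 in each direction, with E7fe and E9se as circles, the arrays of day 9 feather epithelium (E9fe) as triangles and grey lines joining the E7fe and E9se means. The E7fe and E9se arrays did not overlap for any of the 30 genes, but these were chosen for wide differences on the same arrays, so nothing is read from it. Over all genes both E9se arrays lay above both E7fe arrays for 21.3% and below them for 19.5%. The open triangle, E9fe replicate 1, lay near E9se for SP8, where the other E9fe arrays stood at 3.98 and 4.01.

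The largest measured difference belonged to SP8, a zinc finger transcription factor needed for the apical ridge of the limb bud. SP8 stood at 3.61 and 3.88 in E7fe and at 9.50 and 10.1 in E9se, a difference of +6.08 (SE 1.34, limma adjusted p = 0.0438). Its E7fe level was near the bottom of the scale and was not shown to lie above background, so the size of the difference is uncertain, while both E9se arrays were well above the array median. DLX6, a homeobox gene of the distal limb ectoderm, read 3.94 and 4.02 in E7fe and 7.35 and 6.77 in E9se (+3.07). These were the 2 of 13 limb ectoderm regulators that passed, both higher. The median of the list was -0.22, against -0.002 over all genes. Without the doubted arrays EN1, a regulator of the ventral limb ectoderm, was also higher (+1.87), and WNT7A, its dorsal counterpart, was lower (-0.92). LHX8, a LIM homeobox gene, went from 3.49 and 3.16 to 6.79 and 6.30 (+3.22). Whichever single array was left out, SP8 and DLX6 no longer passed, at differences of +5.76 to +6.4 and of +2.78 to +3.37. LHX8 lost its call without E9se replicate 1 (+2.98). Those fits kept the doubted arrays. Without the doubted arrays the limma adjusted p was 4.81e-08 for SP8 and 0.000598 for DLX6. No limb mesenchyme regulator of 24 passed in the fit of all arrays. In that list LMX1B, which specifies the dorsal limb, was lower without the doubted arrays (-2.59).

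HOX genes, which mark position along the body and the limb, leaned to lower levels in the scale epithelium without passing the test. Of 29 HOX genes on the array none was called, and 9 had an unadjusted limma p below 0.05, all lower. Over all probe sets 2513 of 38439 had such a p, in either direction. The list's median was -0.47, against -0.002 over all genes. Leaving out the doubted arrays, 5 were lower, namely HOXA5, HOXA9, HOXB3, HOXB4 and HOXB5, where 1.67% of all genes were lower. HOXB3 read 7.96 and 7.44 in E7fe and 4.97 and 4.55 in E9se (-2.93, adjusted p = 0.172 in the fit of all arrays). HOXB5 read 6.98 and 6.53 in E7fe and 3.94 and 4.22 in E9se (-2.68, 0.430). The lowest adjusted p belonged to HOXA5 (-1.07, 0.0569).

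More of the signalling genes that passed were lower than higher in E9se, and nothing is read from this. Over all genes 91 passed lower and 72 higher. FGF20, a placode ligand of the feather field, stood at 10.1 and 10.6 in E7fe and at 6.71 and 6.74 in E9se (-3.62, SE 0.33, 12.3-fold). It passed in every fit that left out 1 array. DUSP6, a phosphatase induced by FGF signalling, read 9.79 and 10.3 in E7fe and 8.10 and 8.79 in E9se (-1.61). Those were the 2 of 33 FGF genes called, and the list's median was -0.04. With the doubted arrays left out 5 passed, 3 lower and 2 higher, the latter being the receptor FGFRL1 (+1.98) and FGFBP1 (+1.70), a carrier of FGF ligands. DUSP6 had an adjusted p of 0.0561 when only the 2 groups were fitted and of 0.0519 to 0.344 with 1 array left out.

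WNT2B, a ligand of the canonical pathway, went from 8.65 and 8.75 to 5.50 and 4.46 (-3.72, SE 0.50), and passed in all 4 fits with an array left out. It was the only WNT ligand of 18 that passed with all arrays, and without the doubted ones WNT7A (-0.92) was lower and WNT3 (+1.33) higher. In the list of WNT receptors, inhibitors and targets 2 of 40 passed. These were the secreted inhibitors FRZB, at 9.95 and 10.3 in E7fe and 7.66 and 7.72 in E9se (-2.42), and NOTUM, at 8.30 and 8.10 against 6.73 and 6.26 (-1.70). Without the doubted arrays 6 of the 40 were lower and none higher, where 1.67% of all genes were lower and 1.48% higher. The receptors FZD4 (-1.54) and FZD10 (-1.39) joined, with AXIN2 (-1.25) and APCDD1 (-1.02), feedback inhibitors that WNT signalling itself induces. The median of the list was -0.18. FRZB and NOTUM lost their calls whichever array was left out (adjusted p of 0.136 to 0.204 and of 0.127 to 0.336).

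In the BMP, activin and TGF-beta list 2 of 42 passed, 1 each way with and without the doubted arrays, with a median of -0.01. The receptor BMPR1B read 8.18 and 7.57 in E7fe and 6.04 and 5.34 in E9se (-2.18). SMAD6, an intracellular inhibitor of BMP signalling, read 8.73 and 8.87 in E7fe and 9.83 and 9.99 in E9se (+1.11). Neither kept its call with an array left out (lowest adjusted p of 0.0514 and 0.204). CFC1, a membrane co-receptor for NODAL ligands, was at 7.83 and 7.79 in E7fe and at 4.32 and 4.44 in E9se (-3.43). SULF1, an enzyme that edits the sulphation of heparan sulphate and with it growth factor binding, was at 9.96 and 10.2 in E7fe and at 6.81 and 5.67 in E9se (-3.82). Among other growth factors, PTN (pleiotrophin) was lower (-2.60) and VEGFC, a lymphatic growth factor, higher (+1.64), 2 of 47, and 7 of 47 passed without the doubted arrays (3 higher, 4 lower). With 1 array left out and the doubted arrays kept, the difference ran from -3.37 to -3.49 for CFC1 and from -3.25 to -4.39 for SULF1. It ran from -2.14 to -3.06 for PTN and from +1.51 to +1.78 for VEGFC. PTN still passed without E7fe replicate 2 or E9se replicate 1, the other 3 in none of the 4 fits. Without the doubted arrays the limma adjusted p of these genes ran from 3.86e-06 (CFC1) to 0.00432 (VEGFC).

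In the lists of neural crest and of pigment cell genes, those that passed were all lower in E9se. SOX10, the crest transcription factor of melanoblasts and glia, read 9.11 and 9.16 in E7fe and 6.35 and 6.39 in E9se (-2.76, SE 0.45, 6.79-fold, adjusted p = 0.00716). PAX7, PAX3 and FOXD3, which act earlier in the crest, were lower by 1.84, 1.63 and 1.34 units. With SOX10 they made 4 of 18 crest regulators lower and none higher, where 0.700% of all genes were lower and 0.553% higher. The list's median was -0.33, and 5 of the 18 had a positive difference (up to +1.54 for ZIC1). Without the doubted arrays the endothelin receptor EDNRB2 (-2.81) and the receptor KIT (-2.26), which guide melanoblasts into the skin, were lower too. With an array left out SOX10, PAX3 and FOXD3 passed in none of the 4 fits and PAX7 in 2, without E7fe replicate 1 and without E9se replicate 2. Those fits kept the doubted arrays, and the difference of SOX10 ran from -2.74 to -2.79 in them. Without the doubted arrays the limma adjusted p was 4.12e-05 for SOX10, 0.0122 for PAX3 and 0.0147 for FOXD3.

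Of 13 genes for pigment synthesis, 1 passed in the fit of all arrays and 7 without the doubted arrays, all lower. Over all genes 0.700% and 1.67% were lower in these fits. The list's median was -1.49, against -0.002 for all genes, and for 11 of the 13 both E9se arrays lay below both E7fe arrays, as for 19.5% of all genes. TRPM1, a melanocyte channel, went from 7.84 and 6.84 to 5.09 and 5.45 (-2.07, adjusted p = 0.0176) and kept its call only without E7fe replicate 2. PMEL, the fibril protein of the pigment granule, read 11.9 and 12.7 in E7fe and 9.28 and 9.75 in E9se (-2.76, adjusted p = 0.145). MLANA, another granule protein, read 12.6 and 13.2 against 9.50 and 10.6 (-2.82, 0.354). TYR, the rate-limiting enzyme of melanin synthesis, read 9.06 and 9.25 against 6.80 and 7.13 (-2.19, 0.582). The 6 that joined TRPM1 without the doubted arrays were PMEL, MLANA, TYR, DCT, OCA2 and GPR143. SLC24A5 (+0.13) and RAB27A (-0.07) had the smallest differences of the list.

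**Figure D2:**
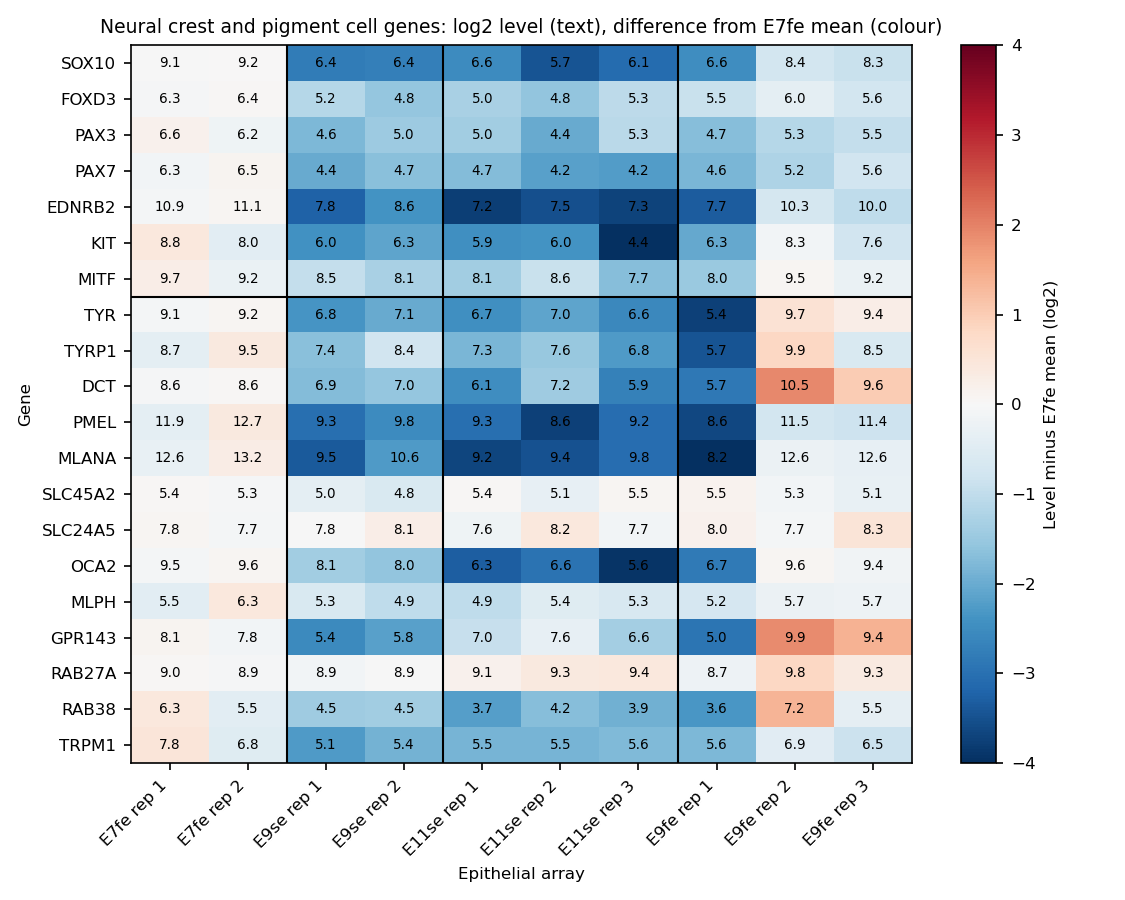
Heat map of crest regulators (above the line) and pigment synthesis genes (below it) on every epithelial array, with the log2 level printed in each cell and colour giving the distance from the E7fe mean. SOX10 stood at 9.11 and 9.16 in E7fe, 6.35 and 6.39 in E9se, 6.64 in E9fe replicate 1, and 8.42 and 8.25 in the other E9fe arrays.

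Day 9 feather epithelium gives these genes at the age of the scale skin. In E9fe replicates 2 and 3, 12 of the 13 pigment synthesis genes stood above both E9se arrays, whereas 11 of 13 in E9fe replicate 1 were below both E7fe arrays. The matching shares over all genes were not computed, so nothing is read from these counts. DCT, a melanin enzyme, read 8.56 and 8.64 in E7fe, 6.87 and 7.04 in E9se, 10.5 and 9.61 in E9fe replicates 2 and 3, and 5.72 in E9fe replicate 1. Among the genes with the largest negative differences, SYP (synaptophysin) went from 7.63 and 7.46 to 4.64 and 4.70 (-2.87, adjusted p = 0.0210), SLITRK6, a neuronal membrane protein, from 8.91 and 8.99 to 5.80 and 5.92 (-3.10), and the adhesion protein CNTN4 from 10.8 and 10.9 to 7.28 and 6.03 (-4.19). SYP and CNTN4 passed in none of the fits with an array left out (0.144 to 0.199 and 0.0960 to 0.294), while SLITRK6 passed in all 4.

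Matrix genes were among the largest differences in the other direction. COL4A2, a chain of basement membrane collagen IV, read 5.64 and 4.37 in E7fe and 10.1 and 10.4 in E9se (+5.21, SE 1.01, adjusted p = 0.0211), and the mean over its 6 probe sets differed by +2.64. LAMB3, the beta chain of the epidermal laminin, read 6.07 and 5.76 against 6.97 and 7.17 (+1.15). These were the 2 of 31 basement membrane genes that passed, at a list median of +0.23. Without the doubted arrays 7 were higher, adding COL4A1 (+3.76), COL4A4 (+2.62), LAMA5 (+1.71), FREM2 (+2.03) and LAMB4 (+1.62), and LAMA4 was lower (-1.84). In that fit 1.48% of all genes were higher and 1.67% lower. COL4A1 had a mean of 3.97 in E7fe and of 7.74 in E9se. Both COL4A2 and LAMB3 lost their calls with any array left out, in fits that kept the doubted arrays. Their differences then ran from +4.57 to +5.84 and from +0.99 to +1.31. Without the doubted arrays their limma adjusted p was 6.77e-05 and 0.0202.

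In the interstitial and matricellular list 2 of 49 passed, at a median of -0.05, and 12 passed without the doubted arrays (7 higher, 5 lower). POSTN (periostin), a matricellular protein of skin and periosteum, read 5.77 and 5.42 in E7fe and 10.2 and 10.8 in E9se (+4.90, SE 0.25, 29.8-fold, adjusted p = 3.42e-08), and no single array decided it. HAPLN1, the link protein that holds hyaluronan to proteoglycans, was the gene with the largest negative difference, at 9.15 and 8.16 in E7fe and 4.49 and 4.06 in E9se (-4.38, SE 0.69). HAPLN1 passed without E7fe replicate 2 and in none of the other 3 fits with an array left out (up to 0.105).

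Of 15 markers of dermal mesenchyme none passed in the fit of all arrays, and without the doubted arrays TWIST2, COL1A1 and COL3A1 were higher and ZEB2 lower. The mean level of the list was 8.32 and 8.29 in E7fe and 8.84 and 8.32 in E9se, against 11.9 in E9sm. TWIST2, a defining dermal regulator, read 3.51 and 3.57 in E7fe and 7.36 and 5.88 in E9se, and 9.39 in E9fe replicate 1. PRRX1 (-0.01), ZEB1 (-0.21) and CDH11 (-0.77) were not higher in E9se. LAMA5 stood at 5.75 in E9sm and at 10.3 and 10.6 in E9se, and FREM2 at 4.46 in E9sm and at 7.28 and 7.56 in E9se, so both were brighter in scale epithelium than in the dermis beneath it. In E9sm, POSTN (12.4) stood above its level on both E9se arrays, while COL4A2 read 8.97 and 10.7, on either side of its E9se values. Among the genes lower in E9se, some were brighter in E7fm than in E7fe. These included WNT2B (10.8 and 10.4 in E7fm), PTN (10.8 and 11.0) and SLITRK6 (10.5 and 10.3). Others were dimmer in E7fm, such as FGF20 (4.82 and 4.61), CFC1 (5.01 and 5.19) and ANKRD22 (5.28 and 4.73). The part of mesenchymal RNA in the differences of all these genes was not tested.

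**Figure D3:**
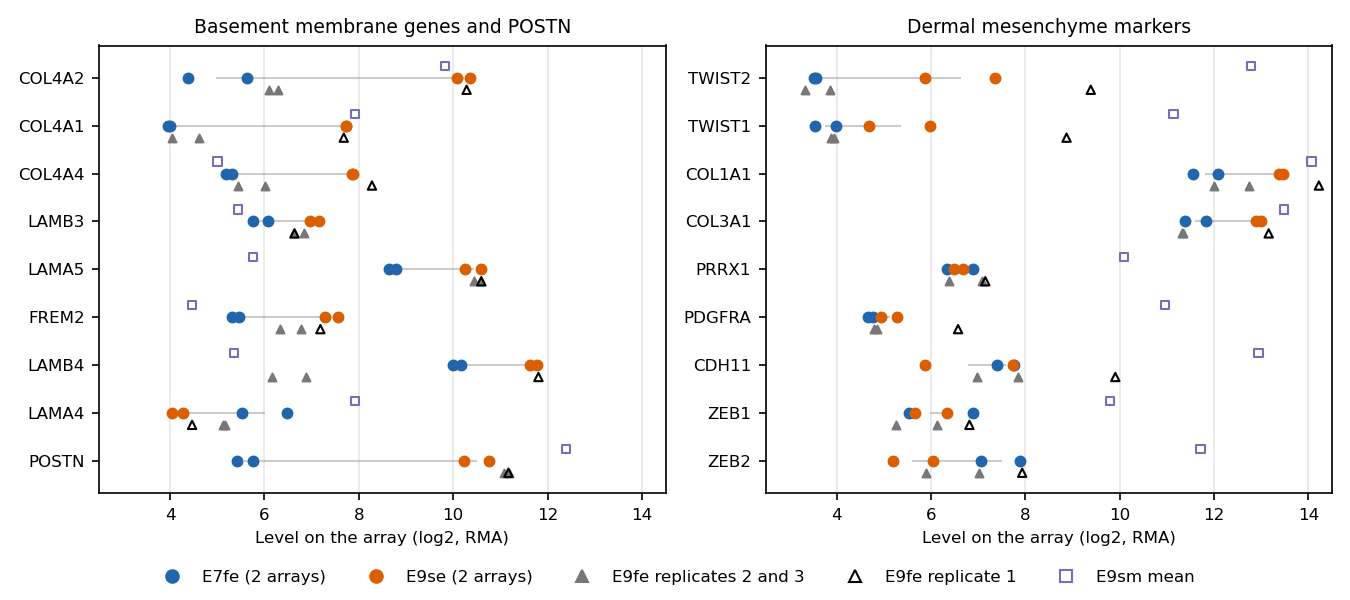
Log2 level on each E7fe, E9se and E9fe array of basement membrane genes with POSTN (left) and of dermal mesenchyme markers (right), with the mean of day 9 scale mesenchyme (E9sm) as an open square. COL4A4, LAMA5, FREM2 and LAMB4 stood higher in E9se than in E9sm, whereas TWIST2 stood at 7.36 and 5.88 in E9se against 12.8 in E9sm.

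Markers of other cell types were read on the same arrays. The mean level of 13 endothelial markers was 4.62 and 4.77 in E7fe and 4.59 and 4.76 in E9se. That of 8 erythroid genes, the globins among them, was 6.56 and 7.44 in E7fe and 5.78 and 6.29 in E9se, with none called. None of 14 skeletal muscle and 9 leukocyte markers passed, and of 12 Schwann cell and nerve and 10 cartilage markers only SOX10 and HAPLN1 did. Without the doubted arrays 3 of the 12 and 3 of the 10 passed, with none of the endothelial, erythroid, muscle and leukocyte markers. The mean of the 11 melanoblast markers, several of them also in the pigment lists, was 9.12 and 9.30 in E7fe and 7.16 and 7.45 in E9se. For all 11 both E9se arrays lay below both E7fe arrays, as for 19.5% of all genes. Without the doubted arrays 7 of the 11 were called, all lower, where 1.67% of all genes were lower. The share of the melanoblast difference in any other difference was not tested.

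Adhesion and guidance genes passed singly. EPHA3, an ephrin receptor, read 3.87 and 3.57 in E7fe and 8.04 and 8.37 in E9se (+4.48, SE 0.60), the only one of 15 ephrins and EPH receptors called in either fit. It passed in all 4 fits with an array left out. NRP1, a co-receptor for semaphorins and VEGF, was higher (+1.37), and the ligand SEMA3E lower (-1.39), 2 of 31 guidance genes, and without the doubted arrays NTNG1 (-2.42) was lower too. Of 33 cadherins and other adhesion proteins CDH17 was higher (+1.36), and CDH4 (-2.17), NTM (-2.05) and PCDH8 (-1.01) were lower, and 7 of the 33 passed without the doubted arrays (2 higher, 5 lower). PCDH8 and CDH17 were dim on all 4 arrays (5.46 or less), and PCDH8 did not pass with only the 2 groups fitted (0.122). Apart from EPHA3, CDH4 alone among these genes still passed with an array left out, E7fe replicate 2 or E9se replicate 1, and the adjusted p of the others then ran up to 0.510.

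Genes of the epidermal programme gave few calls. None of 22 keratins and epidermal differentiation genes passed, at a median of -0.08, and 3 had an unadjusted p below 0.05. Those were KRT5, a basal keratin (9.09 and 9.75 in E7fe, 12.2 and 12.6 in E9se, adjusted p = 0.265), KRT6A (+1.58) and KRT23 (+0.86). KRT5 and KRT6A passed without the doubted arrays. KRT14, the partner of KRT5, read 12.1 and 12.7 in E7fe and 11.8 and 12.3 in E9se. Of 28 epidermal transcription factors 3 passed, and 5 without the doubted arrays (1 higher, 4 lower). HOPX, a homeodomain protein of differentiating keratinocytes, was higher (+1.55), IRX1 went from 9.02 and 9.08 to 6.87 and 6.41 (-2.41), and LBH, a WNT target, from 10.7 and 11.0 to 9.02 and 8.59 (-2.06). IRX1 passed in all 4 fits with an array left out, LBH without E7fe replicate 1 or E9se replicate 1, and HOPX in none. Among 26 cell junction genes none passed, while the gap junction genes GJB6 (-2.29) and GJA5 (-2.40) were lower without the doubted arrays. The desmosomal cadherin DSG4, which was called higher, is not in that list.

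Several of the largest differences lay outside the lists. CHODL, a C-type lectin of the membrane, read 7.45 and 8.09 in E7fe and 12.1 and 11.9 in E9se (+4.25). MAP1LC3C, of the autophagy LC3 family, read 4.75 and 5.57 against 9.54 and 9.47 (+4.35). CMBL, a hydrolase, read 4.69 and 5.09 against 9.45 and 8.97 (+4.32). MAP1LC3C and CMBL lay above the array median only in E9se, and CHODL lay above it in both groups.

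The soluble guanylate cyclase subunit GUCY1A3 (+3.51), the secreted FAM132A (+3.43), the sialidase NEU2 (+3.18), the GABA receptor subunit GABRG1 (+3.15) and the carboxypeptidase CPA6 (+3.08) were higher as well, with adjusted p-values of 8.25e-06 to 0.00284. These 5, CHODL and MAP1LC3C passed in all 4 fits with an array left out, and CMBL in none (0.183 to 0.313). LOC428499, with no gene name in the annotation, read 4.57 and 4.68 against 8.56 and 8.41 (+3.86) and lost its call whichever array was left out (0.0654 to 0.0917).

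On the lower side TUB, the tubby protein (9.85 and 9.94 in E7fe, 7.33 and 7.09 in E9se), and CACNG3, a calcium channel gamma family member known for AMPA receptor trafficking (9.03 and 9.48, 7.10 and 6.44), passed in all 4 fits. The prohormone convertase PCSK2 (-2.52), the unnamed LOC101749175 (-2.86) and ANKRD22 (-2.71) were lower too, and passed in 1, 2 and none of the 4 fits.

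Calcium signalling, which the study followed up in these skins, gave no call among the 49 genes listed for it. Their median was near 0, with 4 higher and 3 lower at an unadjusted p below 0.05. With the doubted arrays left out 2 of the 49 passed, 1 each way. The list does not hold every calcium gene: CACNG3 (-2.49) and the calcium sensor DOC2B (-2.445), both called lower, are outside it. CACNA1D, the pore subunit of an L-type channel, read 6.24 and 4.25 in E7fe and 7.44 and 6.71 in E9se (+1.83, SE 0.66, adjusted p = 0.413). Its E7fe arrays lay farther apart than its E9se arrays, and the groups did not overlap. CAMK1G, a calmodulin-dependent kinase, read 5.60 and 5.83 against 7.07 and 6.81 (+1.22, adjusted p = 0.134, and 0.0294 without the doubted arrays). PRKCB, a calcium-dependent protein kinase C, read 6.54 and 5.80 against 5.16 and 5.04 (-1.07, 0.0519, and 0.0450). The study measured this pathway in other ways as well. By RT-qPCR on broiler embryos, not the white leghorn embryos of the arrays, it reported CACNA1D and CAMK1G higher in early scale than in early feather epithelium. For those genes this was the direction of the array differences. The study also reported CACNA1H higher in early feather epithelium and almost no variation in ORAI1. Array levels of CACNA1H and ORAI1 are not given here, so the match in direction covers only the genes named. It added in situ hybridization and ChIP-qPCR for CACNA1D, and its own pathway test listed calcium signalling for this comparison. A test of single genes on 2 arrays a group does not repeat those measures.

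Further lists had no member called. The hedgehog (12 genes, median -0.15), Notch (16, +0.07) and EDA (8, -0.04) pathways, the integrins (15, -0.17) and the cell cycle genes (32, +0.12) had none in either fit. At an unadjusted p below 0.05 these lists held 0, 2, 0, 0 and 2 genes. The retinoic acid genes (15), the matrix proteases and inhibitors (38) and the immediate early and heat shock genes (19) had none in the fit of all arrays and 1 each without the doubted arrays, with 2, 4 and 7 at an unadjusted p below 0.05. For immediate early genes the one was JUN (9.92 and 10.1 in E7fe, 11.6 and 11.3 in E9se, adjusted p = 0.0773). Of the 7 genes of that list with an unadjusted limma p below 0.05, 4 were higher and 3 lower. Over all probe sets 2513 of 38439 had such a p.

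**Figure D4:**
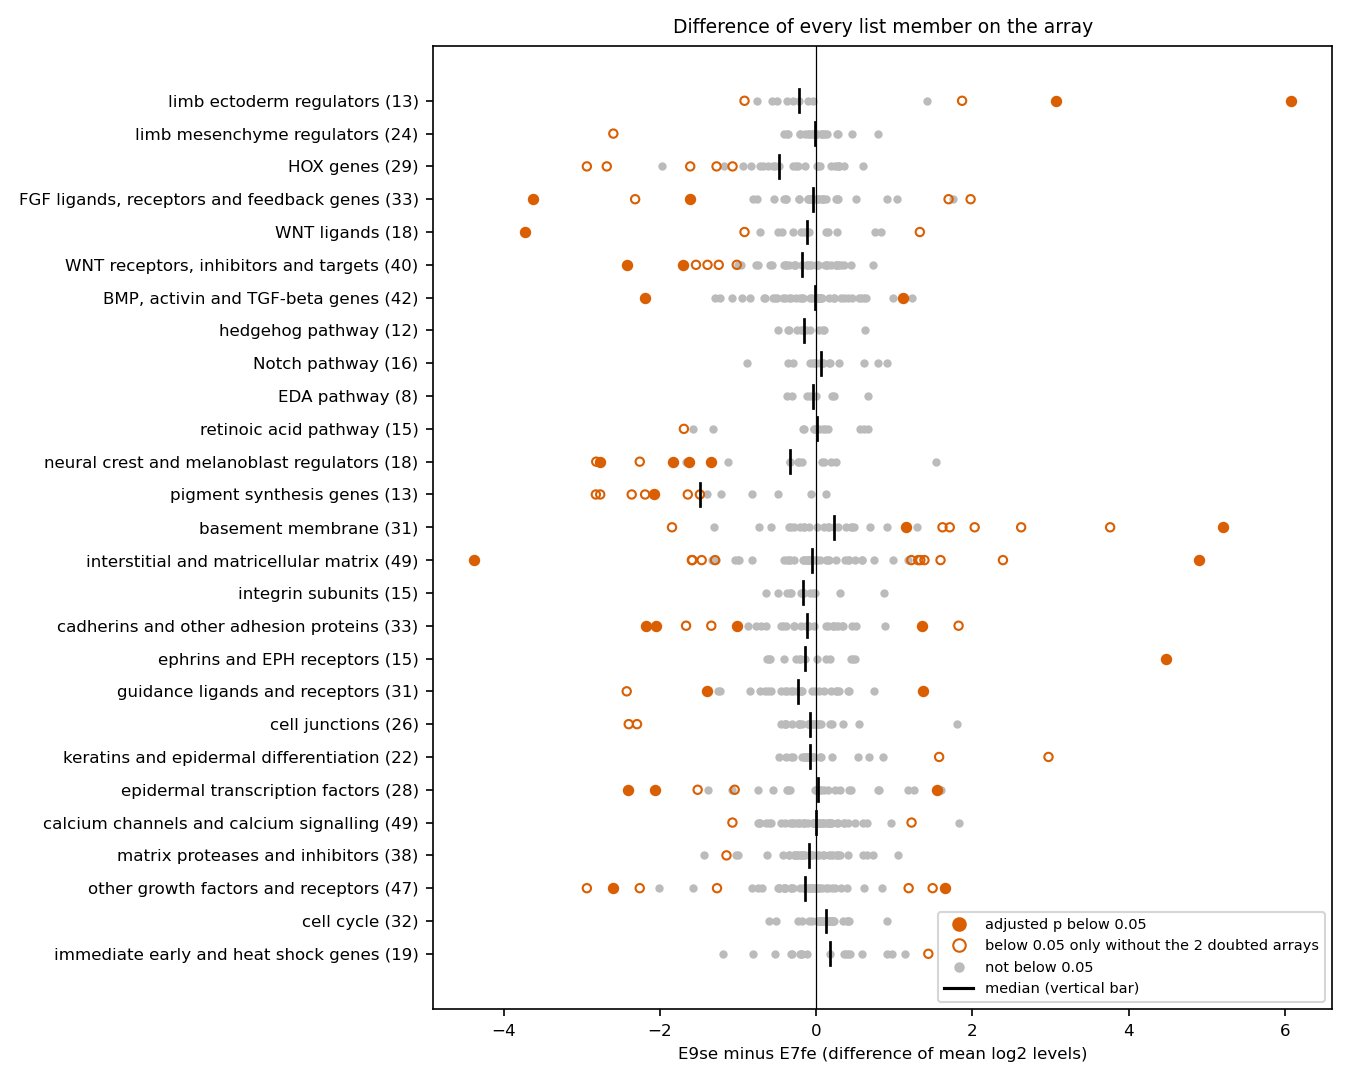
Difference of mean log2 level, E9se minus E7fe, of every list member on the array, 1 row per list with the number of members in brackets, filled where the adjusted p was below 0.05, open where it was so only without the 2 doubted arrays, and with a bar at the list's median. Of the lists plotted, which leave out the cell type markers, the pigment synthesis genes had the median farthest from 0, at -1.49.

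Since E9se was the older tissue, each called gene was also placed against day 9 feather epithelium. This comparison shares the E9se arrays with the first, so its values are only set beside it. Between E9se and E9fe 13 genes (0.0999%) passed with all arrays and 655 (5.03%) without the doubted arrays. On a scale where E7fe is 0 and E9se is 1, E9fe replicates 2 and 3 had a median position of 0.30 for the 72 genes higher in E9se and of 0.61 for the 91 lower genes, and E9fe replicate 1 of 0.70 and 0.89. In replicates 2 and 3, 34 of the higher genes lay under 0.25, near day 7 feather, and 20 over 0.75, near scale. Of the lower genes 12 lay under 0.25 and 33 over 0.75.

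SP8 (3.98 and 4.01), CMBL (4.25 and 3.66), LOC428499 (4.53 and 4.86) and DLX6 (4.79 and 4.09) were thus near their day 7 level in the day 9 feather epithelium. POSTN stood there at 11.2 and 11.1, LHX8 at 6.20 and 6.09, and FAM132A at 8.88 and 8.84, close to scale of the same day. FGF20 (7.21 and 7.10, against 6.71 and 6.74 in E9se) and CACNG3 (6.57 and 6.83) were also nearer to day 9 scale than to day 7 feather epithelium. SULF1 (9.95 and 9.39) and SOX10 (8.42 and 8.25) were nearer to their day 7 level. Levels in E11se showed that not every difference lasted. CMBL had a mean of 5.97 there against 9.21 in E9se, and FGF20 of 9.20 against 6.72, while SP8 was at 9.87.

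The last question was whether an early difference was larger in the epithelium than in the mesenchyme, and it was tested as the difference of the 2 differences in the same model. Of all genes 106 (0.815%) passed, and of the 163 genes called in the epithelium 48. Those 163 were chosen for the epithelial difference, which is a term of this test on the same arrays, so the 48 are given as a count from which nothing is read. CPA6 had a difference of +3.08 in the epithelium and of -2.04 in the mesenchyme, and MAP1LC3C of +4.35 and -1.63. For FGF20 the values were -3.62 and +0.25, with mesenchymal means of 4.71 and 4.96 that lay below the array median. WNT2B, in contrast, had negative differences in both (-3.72 and -1.52), and its 2 differences were not told apart (adjusted p = 0.328). POSTN was at 12.4 in both mesenchymes (+0.04).

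**Figure D5:**
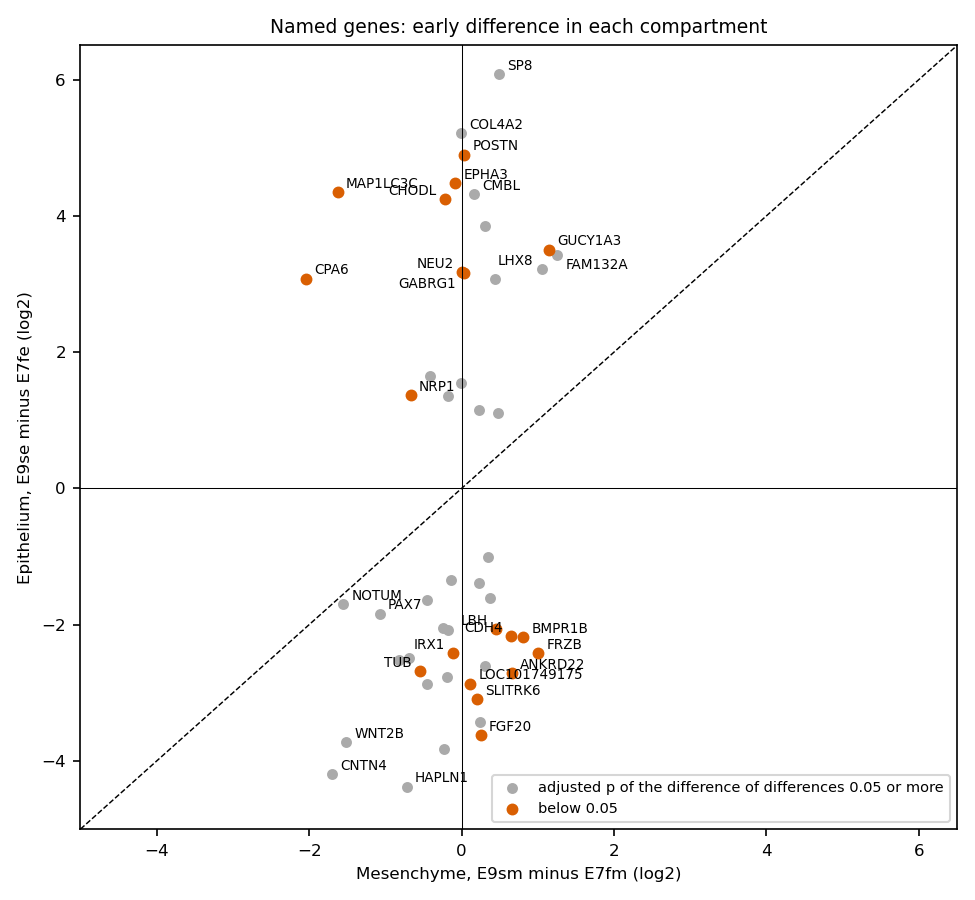
Early difference in mesenchyme (E9sm minus E7fm, horizontal) and in epithelium (E9se minus E7fe, vertical), in log2 units, for the 50 genes named by rule, with the dashed line where both would be equal. Most points lay near 0 on the horizontal axis, with CPA6 at -2.04 and MAP1LC3C at -1.63 as the farthest to the left among those that passed the test of the 2 differences.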

How the data were processed

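The deposited values are log2 levels that the authors made from chicken genome arrays with RMA in the affy package (background correction, quantile normalisation, probe set summary); the number of arrays limits the precision. Of 38535 probe sets 96 controls were left out. Annotation gave 1 symbol to 27168, several to 177 and none to 11094. Each of 13009 genes was read from its brightest probe set over the 20 arrays. Groups follow the sample titles, although the Methods give other array numbers per group. A model with 1 mean per group over 8 groups was fitted with limma 3.58.1 (R 4.3.3) and moderated by eBayes; p-values were adjusted over 38439 probe sets and called below 0.05. They measure the spread between arrays, which may be technical. Of 85 called genes with several probe sets, 12 had differences of both signs among them, and no probe set was called against its gene (for COL4A2 they ran from +0.56 to +5.21). The fit was tested on simulated data. Other fits, filters and left-out arrays are given in the closing section. Named were the 15 largest called differences each way, all called list members, defining markers and, of the calcium genes of the study, only CACNA1D, CAMK1G and PRKCB. Members and lists were chosen with earlier results of these data known. No gene sequence is shown. Tables were made with pandas 2.3.3.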

Additional observations from a re-analysis of the deposited data

Results flagged for a closer look

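Of the 50 genes named by rule, 19 had an early scale minus feather difference that was not the same in epithelium and mesenchyme (limma test of the difference of the 2 differences, adjusted p below 0.05), and all 19 also passed without the 2 doubted arrays. For 15 of the 19 the mesenchymal difference was under 1 unit in size. The 50 were chosen mostly for a large epithelial difference, which is a term of this test on the same arrays, so a raised number among them is built in. No group held enough arrays for a test of single outlying arrays.

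Values are the epithelial minus the mesenchymal difference in log2 units. Of the 9 positive ones the widest was MAP1LC3C (+5.97, SE 0.71), followed by CPA6 (+5.12), POSTN (+4.86), EPHA3 (+4.57) and CHODL (+4.46). Smaller were NEU2 (+3.17), GABRG1 (+3.12), GUCY1A3 (+2.35) and NRP1 (+2.04). For MAP1LC3C, CPA6 and FRZB the mesenchymal difference ran the opposite way and exceeded 1 unit. That of FRZB rested on 1 of the 2 E9sm arrays, which read 7.58 and 9.83, against 7.87 and 7.52 in E7fm.

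The 10 negative ones began with FGF20 (-3.87, SE 0.46), FRZB (-3.42), ANKRD22 (-3.36) and SLITRK6 (-3.30). They continued with BMPR1B (-2.99), LOC101749175 (-2.97), CDH4 (-2.82), LBH (-2.51), IRX1 (-2.30) and TUB (-2.13). FRZB had means of 7.70 in E7fm and 8.70 in E9sm, against 10.1 in E7fe and 7.69 in E9se.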

How the results depend on the processing

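No named gene of the 50 changed direction in a fit that was run (CDH17 was too dim for the one on probe sets above 5), but most alternatives leave the difference itself as it is, and 28 to 33 of the 50 lost their call with 1 array left out. For E9se against E7fe, 314 probe sets passed (136 higher, 178 lower; 2513 at an unadjusted p below 0.05). The count was 760 (342 and 418) without the 2 doubted arrays, 634 (293 and 341) with only the groups compared, 149 (49 and 100) with the 4 epithelial groups, and 590 (262 and 328) with those groups less E9fe replicate 1, a choice made after seeing the data. With 1 array left out, where the lone array is assumed to vary like the other groups, it was 55 to 106 (26 to 45 higher, 26 to 70 lower). E9se against E9fe gave 29, and 1228 without the doubted arrays, 0 with only the groups compared (3327 at an unadjusted p below 0.05), 64 with an intensity trend, 45 with a filter on dim probe sets and 0 to 965 with 1 array left out. Leaving out E9fe replicate 1 alone raised it to 965. The difference between compartments gave 189, then 646 and 645 for the first 2 of these choices, and 59 to 141 with 1 array left out. With the replicate number as a block the 3 comparisons gave 390, 23 and 225. The deviations of same-numbered E7fe and E9se arrays correlated at 0.405, a single value with 2 arrays a group, too few to show whether the numbers pair the arrays, and no label says so. Of the named genes the block ended only the call of SMAD6 (adjusted p = 0.0595). Median centring of the arrays gave 308. SP8 had an adjusted p of 0.0537 with an intensity trend, and SYP of 0.0510 with the mean over its probe sets (-1.04). That mean also moved COL4A2 to +2.64, EPHA3 to +3.06, MAP1LC3C to +2.34, GUCY1A3 to +1.85 and DLX6 to +1.94, which still passed. On the lower side it moved CNTN4 to -2.89, SULF1 to -2.74, SLITRK6 to -1.66, PCSK2 to -1.51, CACNG3 to -1.33, CDH4 to -1.19 and NTM to -1.04. Those still passed as well. The cause of these changes was not tested.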

Other observations

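Further called genes outside the lists, chosen after their values were seen, are given here as single values. SCG2, a secretory granule protein, had a mean of 8.51 in E7fe and 6.40 in E9se (-2.11), and OLFM1, a secreted neuronal glycoprotein, of 11.8 and 9.87 (-1.97). The dopamine receptor DRD1 (-2.34), the synaptic vesicle coat protein SNAP91 (-1.89), the calcium sensor DOC2B (-2.45), the scaffold HOMER3 (-2.46) and the mechanosensitive channel PIEZO2 (-1.64) were lower too. A second DRD1 probe set differed by only -0.123. The 4 probe sets of SCG2 ran from -2.151 to -0.027 and the 8 of PIEZO2 from -1.743 to -0.010, with 1 called for each gene. For OLFM1, SNAP91 and HOMER3 more than 1 probe set was called lower. OLFM1, SNAP91 and PIEZO2 lost their calls whichever array was left out. DRD1, DOC2B and HOMER3 lost theirs in some of those fits, and SCG2 in none. In E9fe replicates 2 and 3, SCG2 (mean 5.73) and DOC2B (4.82, against 6.05 in E9se) stood below their E9se means, and the others above theirs. The neurofilament genes NEFM (11.1 and 10.7 in E7fe, 8.65 and 7.48 in E9se) and NEFL (8.40 and 8.58, 6.62 and 5.71) had adjusted p-values of 0.232 and 0.183, and passed only without the doubted arrays. Unlike the genes above, both belong to a list, the 12 Schwann cell and nerve markers. The median of that list was -0.14, and its differences ran from -2.87 for NEFM to +0.79 for FABP7.

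On the higher side MAOA, which oxidises amines, had a mean of 5.14 in E7fe and 7.98 in E9se (+2.83), and 4.55 over E9fe replicates 2 and 3. PGR, the progesterone receptor, stood at 3.41 and 5.43 (+2.03). DSG4, a desmosomal cadherin of differentiating epidermis, rose from 6.00 to 8.19 (+2.19) and stood at 9.20 in those E9fe arrays and at 10.1 in E11se. LAMB4, described with the basement membrane, was bright in both E7fe (10.2 and 9.99) and E9se (11.6 and 11.8), and averaged 6.53 in E9fe replicates 2 and 3 against 11.8 in E9fe replicate 1.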
